A study of Mus musculus with 12 samples.

Results

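The genes of the neurofilament subunits and of the related neuronal intermediate filaments, Nefl, Nefm, Nefh, Ina and Prph, were followed across the retinas of 4 groups of mice. They were picked out by their symbols, as 5 of the 54532 gene identifiers in the count table, and all 5 were among the 18299 genes that passed the filter on low counts. The groups were SHAM (the sham control), MOG (immunized with the MOG35-55 peptide of myelin oligodendrocyte glycoprotein), GB20 (immunized and needled at the acupoint GB20) and GV16 (immunized and needled at GV16, used as a control site), with 3 libraries each. Every library came from whole retina of wild type C57BL/6 mice aged 13 weeks. By the study's methods the mice were female, the peptide was given in complete Freund's adjuvant with pertussis toxin, and needling was done under anaesthesia. The methods give 2 or 3 mice per group in each of 3 repeats and call the libraries biological replicates, without saying how many mice went into a library, what SHAM mice were injected with or whether unneedled mice were anaesthetized. The p-values measure the spread between these libraries. Between 15860278 and 19194280 reads were counted per library. Against the tissue label, retina, the 10 bipolar cell markers were checked: their summed level was 1594 to 1800 CPM (reads scaled to the library total) in the 12 libraries, led by Trpm1 with a mean of 366 CPM.

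Neurofilaments are the intermediate filaments of the neuronal cytoskeleton. They are built from a light (Nefl), a medium (Nefm) and a heavy (Nefh) subunit together with alpha-internexin (Ina) or, in many neurons with peripheral projections, peripherin (Prph), and their amount sets the calibre of large axons. In the retina these proteins are known above all from ganglion cells, whose axons form the optic nerve, and some are also found in horizontal cells. Neurofilament light chain released into body fluids is a widely used marker of axonal damage.

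All 5 are protein-coding genes (coordinates in GRCm38, the build also called mm10). Nefl (ENSMUSG00000022055) lies on the plus strand of chromosome 14 from 68083863 to 68089095, with 4 exons and 3380 bp of exonic sequence. Nefm (ENSMUSG00000022054) lies beside it on the minus strand, from 68082590 to 68124846, with 5782 bp. Nefh (ENSMUSG00000020396) lies on chromosome 11 from 4938754 to 4948064, minus strand, with 3994 bp. Ina (ENSMUSG00000034336) lies on chromosome 19 from 47014698 to 47025327, plus strand, with 3240 bp, of which 456 bp overlap exons of Nt5c2 on the other strand. Prph (ENSMUSG00000023484) lies on chromosome 15 from 99055174 to 99058978, plus strand, with 1999 bp.

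Nefl and Nefm share exonic sequence. The longer transcript of Nefm crosses the start of Nefl, so 1108 bp (68083863 to 68084970 on chromosome 14) are exonic on both strands, which is 32.8% of Nefl and 19.2% of Nefm. The shared stretch lies in the first exon of Nefl and holds 1008 coding and 100 untranslated bases of it. The lengths behind the deposited FPKM values matched these merged exons for all 5 genes. The sources used here do not say whether reads were counted by strand, and without strand the reads of both genes cannot be told apart in this stretch. Its part in the levels was not tested.

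**Figure D1:**
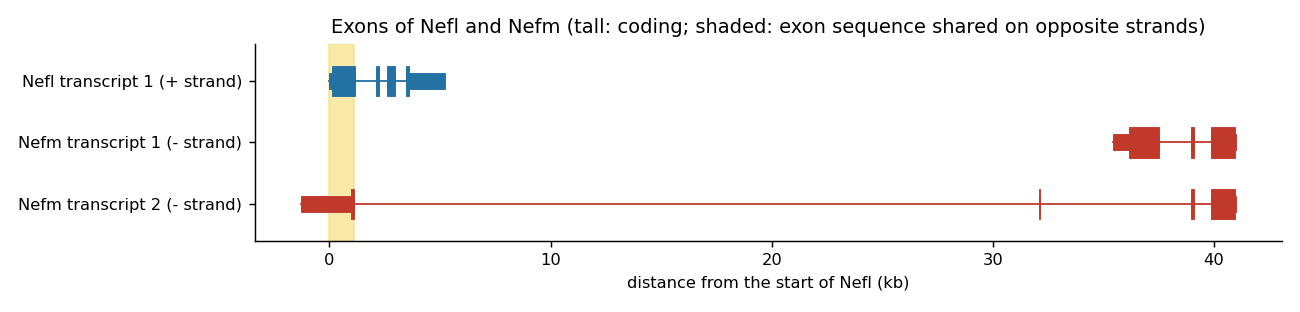
Exons of Nefl and Nefm drawn against distance from the Nefl start site in kb, with the shared exonic stretch shaded. The 1108 shared bp cover the start of Nefl and belong to the longer Nefm transcript.

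RefSeq promoter entries matched 2 of the 5 members, Ina and Prph, and the sequence before their start sites is shown (GRCm38.p6, 5′ to 3′, 250 bases on the plus strand). These 2 happened to be the members that fell least (Ina) and most (Prph) in MOG. Capitals mark motifs found on either strand. The letters searched were TATAAA for the TATA box, GGGCGG for the GC box (seen as CCGCCC when on the minus strand), CCAAT for the CCAAT box, TAATTA for a homeodomain core, and CACGTG as well as CAGCTG for the E-box.
Ina, chr19:47014431-47014680: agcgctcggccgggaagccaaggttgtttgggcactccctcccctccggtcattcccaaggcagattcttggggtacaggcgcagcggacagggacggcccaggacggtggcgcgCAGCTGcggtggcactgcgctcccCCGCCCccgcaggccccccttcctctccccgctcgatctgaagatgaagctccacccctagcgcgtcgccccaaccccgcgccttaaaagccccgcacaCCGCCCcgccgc
Prph, chr15:99054924-99055173: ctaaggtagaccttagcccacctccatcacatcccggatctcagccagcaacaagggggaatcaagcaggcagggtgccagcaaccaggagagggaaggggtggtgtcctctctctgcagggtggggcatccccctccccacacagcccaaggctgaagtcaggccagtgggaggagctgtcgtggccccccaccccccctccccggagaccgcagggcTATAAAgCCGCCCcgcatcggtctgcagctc

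The Prph window held TATAAA, the TATA box sequence, from 31 to 26 bp before the start site, and GGGCGG, the GC box sequence, from 24 to 19 bp before it. The Ina window held GGGCGG at 111 to 106 and at 12 to 7 bp before the start and CAGCTG, an E-box, at 135 to 130 bp, with no overlap among them. Its distances are from the RefSeq start site: the window ends at 47014680, whereas the Ina coordinates given above begin at 47014698. Among 32851 promoters of the same length, 12.4% held TATAAA, 32.7% GGGCGG and 13% CAGCTG, against 33.8% for CCAAT, 4.84% for TAATTA and 6.02% for CACGTG. The GC content was 70.8% with 25 CpG for Ina and 65.2% with 7 CpG for Prph, beside medians of 52.4% and 6 over all promoters.

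Nefl was the most abundant member per length. In SHAM retinas its level was 82.1 ± 4.5 FPKM (fragments per kilobase of exon scaled to the library total, SD, n = 3), followed by Ina with 29.9 ± 2.1, Nefm with 24.4 ± 2.3, Nefh with 24.2 ± 2.2 and Prph with 2.19 ± 0.28. The libraries of Nefm and Nefh overlapped, so their order was within the spread. By mean FPKM over all libraries Nefl ranked 587 of the 18299 tested genes, Ina 2049, Nefh 3098, Nefm 3298 and Prph 12962. The place of Nefm depended on the transcript used for its length. With the shorter transcript of 3334 bp it took 23.4% of the summed level in SHAM, above Ina with 16.5%. By deposited FPKM, with the merged length of 5782 bp, it took 15% and Ina 18.4%. The shorter transcript holds 2544 coding bp and the longer one 1410.

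The first comparison, MOG vs. SHAM, asked how the genes stood in the retina after immunization. All 5 were down-regulated in MOG. By fitted value Prph fell most and Ina least, with Nefl, Nefm and Nefh between them.

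Nefl, the light subunit on which the filament assembles, stood at 293, 284 and 263 CPM in the SHAM libraries and at 164, 136 and 139 in MOG. Every MOG library was far below every SHAM library. This was −0.94 on the log2 scale, or −47.8%, with SE 0.10 and an adjusted p of 3.48e-05 (edgeR quasi-likelihood test, Benjamini-Hochberg over all tested genes), and Nefl ranked 11 of 18299 genes by p.

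Nefm, the medium subunit, whose long tail forms side arms, stood at 158, 134 and 136 CPM in SHAM and at 82.8, 62.4 and 64.4 in MOG. The groups did not overlap. The fall was −1.03 in log2 units, or −50.9% (SE 0.17, adjusted p = 0.0117).

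Nefh, the heavy subunit, carries the longest and most phosphorylated tail. Its level was 108, 93.1 and 91.8 CPM in SHAM and 60.3, 47.0 and 51.5 in MOG, again without overlap. On the log2 scale it changed by −0.88, or −45.6% (SE 0.11, adjusted p = 0.000366).

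Ina, which can form filaments without the other subunits and appears early in neuronal development, stood at 104, 98.5 and 90.4 CPM in SHAM and at 73.9, 65.9 and 65.6 in MOG. The groups did not overlap, but the gap was narrower than for the 3 neurofilament subunits. In log2 units the change was −0.51, or −29.9% (SE 0.09, adjusted p = 0.00398).

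Prph was the rarest member, with 28 to 84 reads per library, which gives a counting error of 10.9% to 18.9% of its count. It stood at 4.48, 4.94 and 3.83 CPM in SHAM and at 1.90, 1.72 and 1.98 in MOG. The MOG libraries lay close together and well below SHAM. Prph changed by −1.24 in log2 units, or −57.5% (SE 0.20, adjusted p = 0.0015).

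**Figure D2:**
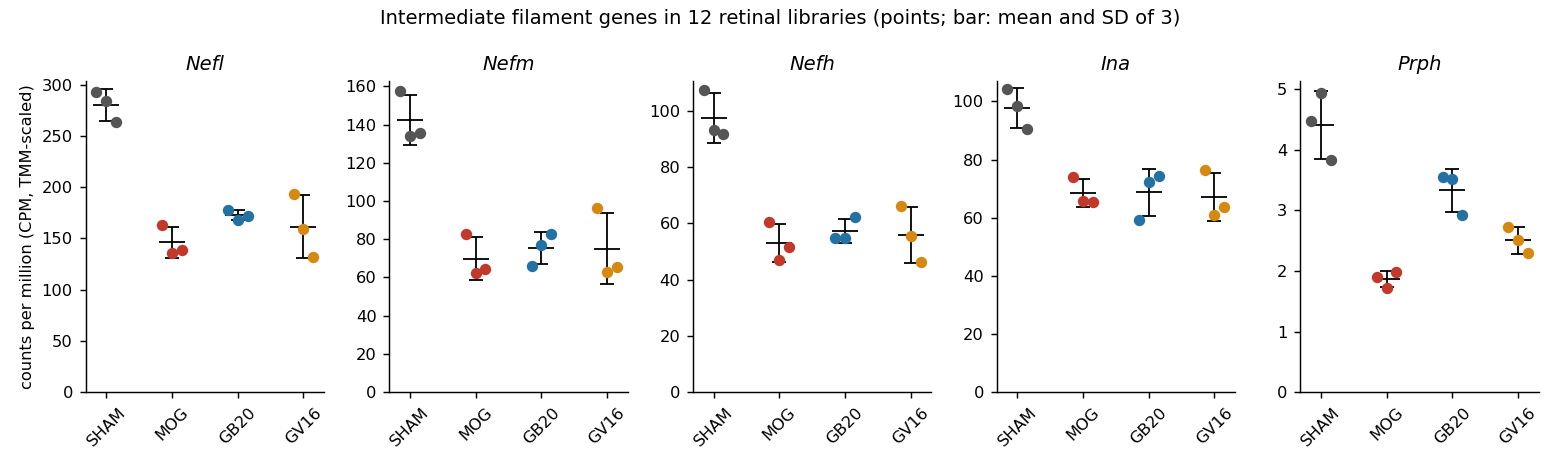
Level of each member in CPM for the 12 libraries, by group, with points for libraries and bars for the group mean and SD (n = 3). For every member the 3 SHAM libraries lie above the 3 MOG libraries, and for Prph the groups stand in the order SHAM, GB20, GV16, MOG without overlap.

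Thus 5 of 5 members were called lower in MOG vs. SHAM, where 0.771% of all tested genes were called lower and 1.34% were called at all. All 5 had every MOG library below every SHAM library, against 8.34% of tested genes. The median log2 fold change was −0.94, and −0.0023 over all tested genes. The study drew attention to neurofilaments from these same libraries, so the count is not independent evidence of the direction. Nefl, Nefh and Prph were called in all 21 other fits. Nefm was not called without SHAM replicate 1 (adjusted p = 0.0667), SHAM replicate 2 (0.0853), MOG replicate 2 (0.0706) or MOG replicate 3 (0.0874), and Ina was not called without MOG replicate 2 (0.0536) or MOG replicate 3 (0.0586), so that 3 of 5 remained called without either of these MOG libraries. In whole retina, fewer cells of a type and less RNA per cell cannot be told apart.

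The shares of the members in their summed level were compared as a description. By FPKM the share of Ina in the summed level was 18.4% ± 0.2 (SD, n = 3) in SHAM and 23.4% ± 0.9 in MOG, with no overlap. The share of Nefl was 50.5% ± 1.0 and 47.7% ± 0.2, that of Nefm 15% ± 0.7 and 13.3% ± 0.7, that of Nefh 14.8% ± 0.6 and 14.6% ± 0.5, and that of Prph 1.34% ± 0.15 and 1.04% ± 0.11. The Nefh libraries overlapped, and those of Nefl, Nefm and Prph did not.

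As log2 FPKM ratios, Nefl to Ina was 1.46 ± 0.03 in SHAM and 1.03 ± 0.05 in MOG, a difference of −0.43. The difference was −0.52 for Nefm to Ina, −0.37 for Nefh to Ina and 0.72 for Ina to Prph. Among the 3 subunits, Nefm to Nefh differed by −0.15 without overlap, and Nefl to Nefh by −0.06 and Nefl to Nefm by 0.09 with overlap. Of the 10 ratios among the members, 7 did not overlap between the groups. In the 2-sided exact permutation test 3 against 3 libraries cannot go below p = 0.1, and the lowest adjusted p over the 10 ratios was 0.143, so none passed.

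The next comparisons asked whether needling at either point changed the levels in immunized mice. GB20 and GV16 are both compared with the same MOG libraries. Neurofilament genes stayed well below SHAM in both needled groups, and Prph was the member with the largest difference from MOG.

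In GB20 vs. MOG, 0 of 5 members were called by edgeR, against 0.24% of all tested genes, and 2 of 5 had an unadjusted p under 0.05. None was called by DESeq2 or limma-voom. Prph stood at 3.55, 3.53 and 2.92 CPM in GB20, above all 3 MOG libraries. Its log2 difference was 0.83 (SE 0.21, 95% interval 0.41 to 1.26, adjusted p = 0.135 by edgeR), or 78.4%, which did not pass over all genes.

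Nefl stood at 178, 168 and 172 CPM in GB20. These libraries lay just above the highest MOG library. The log2 difference from MOG was 0.24 (95% interval 0.03 to 0.46, adjusted p = 0.567 by edgeR). All libraries were higher for 2 of 5 members, Nefl and Prph, against 7.96% of tested genes. For Nefm the difference was 0.11 (interval −0.26 to 0.48), for Nefh 0.11 (−0.13 to 0.35) and for Ina 0.0025 (−0.19 to 0.20), all with overlapping libraries.

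In GV16 vs. MOG, 0 of 5 members were called, against 0.164% of tested genes, and none had an unadjusted p under 0.05 in edgeR or was called by DESeq2 or limma-voom. Prph stood at 2.73, 2.51 and 2.29 CPM in GV16, above the MOG libraries, as did 6.17% of tested genes. The log2 difference was 0.42 (interval −0.02 to 0.87, adjusted p = 0.957). Nefl spread widely in GV16, at 193, 159 and 132 CPM, and overlapped MOG (0.14, interval −0.07 to 0.36). The differences were 0.10 for Nefm, 0.08 for Nefh and −0.03 for Ina. Without GV16 replicate 1 those of Nefl, Nefm and Nefh were −0.01, −0.12 and −0.06.

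With GB20 and GV16 averaged against MOG, 0 of 5 members were called (0.317% of tested genes) and 2 of 5 had an unadjusted p under 0.05. The log2 difference was 0.63 for Prph (interval 0.25 to 1.01, adjusted p = 0.27), 0.19 for Nefl (0.0044 to 0.38, adjusted p = 0.644), 0.10 for Nefm, 0.09 for Nefh and −0.01 for Ina. Neither DESeq2 nor limma-voom called a member.

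Comparing the needling points themselves, GB20 vs. GV16 called 0 of 5 members and 0.00546% of tested genes, with no member at an unadjusted p under 0.05 and none called by DESeq2 or limma-voom. Prph was higher in every GB20 library than in any GV16 library, as were 4.03% of tested genes, by 0.41 on the log2 scale (interval −0.0004 to 0.82, adjusted p = 1 by edgeR). The other differences were 0.10 (Nefl), 0.0041 (Nefm), 0.04 (Nefh) and 0.03 (Ina), and each changed sign when 1 library was left out. The interval for Ina was −0.16 to 0.23 and that for Nefm −0.37 to 0.37.

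**Figure D3:**
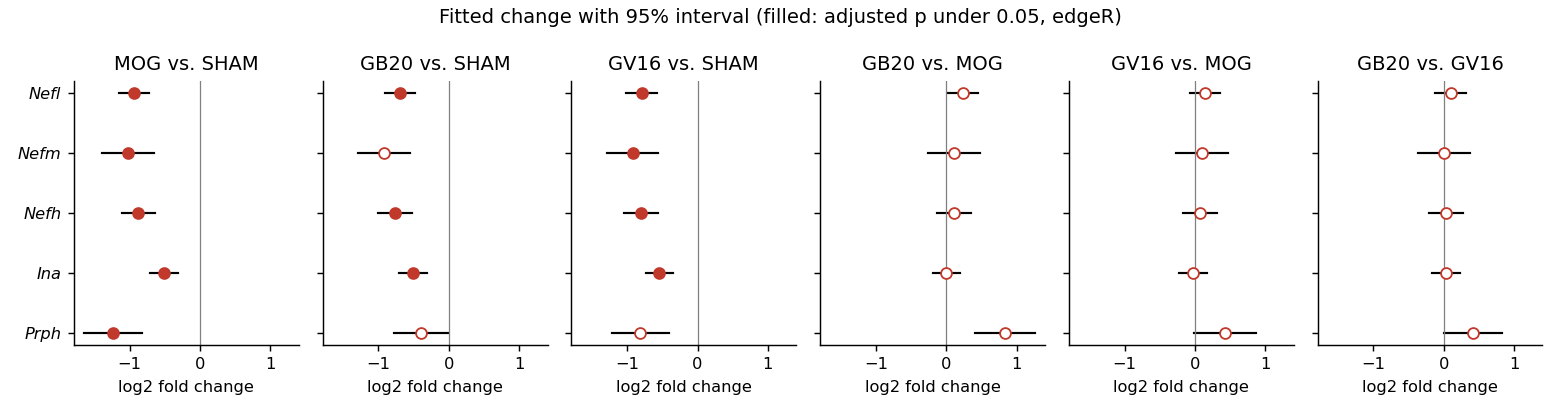
Log2 fold change of each member with its 95% interval in the comparisons among the groups, from edgeR on all 12 libraries. In MOG vs. SHAM all 5 intervals lie below 0, from −0.51 for Ina to −1.24 for Prph, and in GB20 vs. MOG those of Nefl and Prph lie above 0.

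Against SHAM, both needled groups remained lower. In GB20 vs. SHAM 3 of 5 members were called lower, against 0.18% of tested genes. These were Nefl (−0.70, adjusted p = 0.00298), Nefh (−0.77, 0.00367) and Ina (−0.51, 0.0129). Nefm missed the threshold at −0.92 (adjusted p = 0.052). With the replicate block as an alternative, Nefm was −0.91 (adjusted p = 0.0325 by edgeR) and 4 of 5 were called. Nefm passed in 10 of 21 other fits, among them DESeq2 (adjusted p = 0.00126) and limma-voom (0.00225) on all 12 libraries. The highest adjusted p among those 21 fits was 0.258. Without GV16 replicate 1, where Nefm was high at 96.4 CPM beside 63.1 and 65.7 in the other GV16 libraries, its adjusted p was 0.000115. Without GB20 replicate 1 only Nefl was called. Prph was at −0.40 (interval −0.78 to −0.02, adjusted p = 0.524). Every GB20 library lay below every SHAM library for 5 of 5 members, against 7.09% of tested genes.

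In GV16 vs. SHAM 4 of 5 members were called lower, against 0.432% of tested genes: Nefl (−0.80, adjusted p = 0.000566), Nefm (−0.92, 0.0352), Nefh (−0.80, 0.0018) and Ina (−0.54, 0.00537). Prph missed the threshold at −0.81 (adjusted p = 0.0533), and with the replicate block it was at −0.81 (adjusted p = 0.0376) and 5 of 5 were called. It passed in 4 of 21 other fits (adjusted p from 0.0376 to 0.289), and DESeq2 and limma-voom on all 12 libraries each called 4 of 5. All 5 members had every GV16 library below every SHAM library, against 7.6% of tested genes. The call of Nefm held in 12 of 21 other fits. It was lost without any 1 of the 3 SHAM libraries, MOG replicate 3, GB20 replicate 2 or 3, or GV16 replicate 2 or 3 (adjusted p = 0.057 to 0.201), and with a length offset (0.0563). Ina lost its call as well without SHAM replicate 1 (0.0597), GV16 replicate 2 (0.0549) or GV16 replicate 3 (0.0781), which left 2 of 5 called. The 3 comparisons with SHAM share the same 3 SHAM libraries.

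Beside the members, retinal ganglion cell markers fell in MOG. Of 19 markers 12 were called lower in MOG vs. SHAM and none higher, against 0.771% of tested genes called lower. Their median log2 fold change was −0.64, and the count was 8 to 12 with 1 library left out. The 12 included Sncg (gamma-synuclein) at −0.93 and the RNA-binding protein genes Rbpms2 at −0.90 and Rbpms at −0.64. Among them were also the glutamate transporter gene Slc17a6 at −0.58 and Thy1 at −0.57. The largest falls were those of the transcription factor genes Isl2 (−1.14) and Pou4f1 (−1.03). Jam2, the most abundant of the 19, stood at 171 ± 14 CPM in SHAM and 176 ± 2 in MOG (0.04, adjusted p = 0.836), and made up 18.8% of the summed marker level in SHAM and 26.9% in MOG. The summed marker level was 879 to 971 CPM in SHAM, 625 to 702 in MOG, 695 to 718 in GB20 and 614 to 769 in GV16. Its part in the fall of the members was not tested.

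The members were also set against that sum, with no test. On the log2 scale Nefl stood at −1.70 ± 0.06 in SHAM and −2.17 ± 0.07 in MOG, Nefm at −2.68 ± 0.05 and −3.24 ± 0.14, Nefh at −3.23 ± 0.05 and −3.64 ± 0.12, and Prph at −7.69 ± 0.19 and −8.46 ± 0.14, none overlapping. Ina stood at −3.22 ± 0.06 and −3.26 ± 0.02, with overlap. In GB20 and GV16 Nefl was at −2.04 and −2.09, and Prph at −7.74 and −8.08. Nefm, at −3.24 and −3.20, and Nefh, at −3.63 and −3.62, were close to their MOG means. Ina, at −3.37 and −3.34, was below its SHAM and MOG means. The size of the differences between MOG and SHAM depended on Jam2. With it left out of the sum, MOG minus SHAM was −0.32 for Nefl (−0.47 with it), −0.41 for Nefm (−0.56), −0.26 for Nefh (−0.41) and −0.61 for Prph (−0.76), again without overlap, and 0.11 for Ina (−0.04), now without overlap and in the other direction. By their own log2 fold changes, 0 of the 19 markers fell more than Prph, 1 more than Nefm, 2 more than Nefl, 7 more than Nefh and 12 more than Ina.

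**Figure D4:**
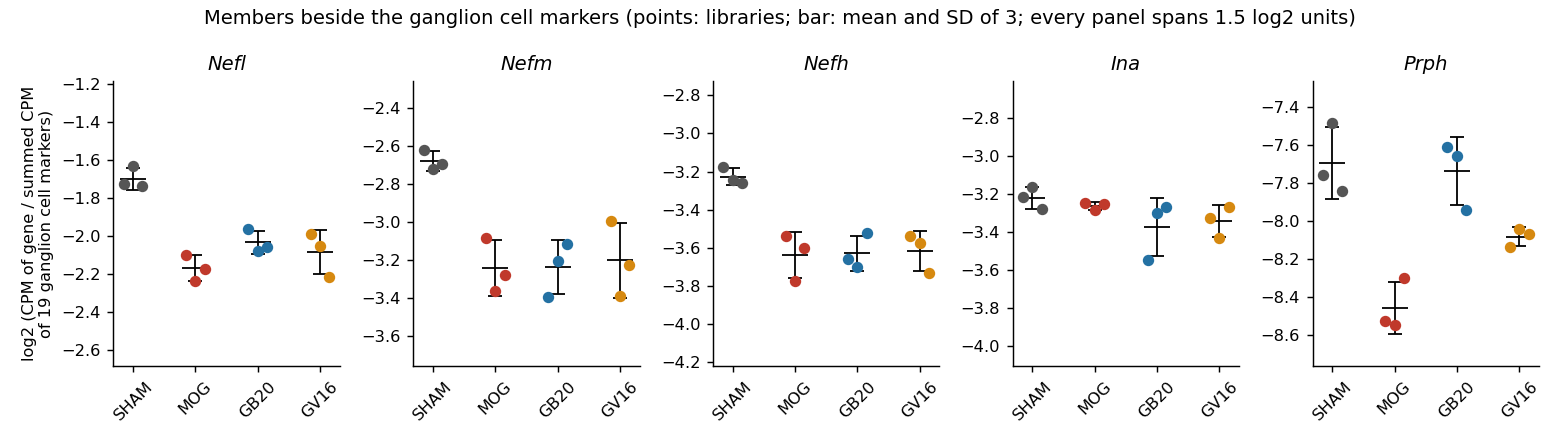
Log2 ratio of each member's CPM to the summed CPM of 19 ganglion cell markers in the 12 libraries, by group. Nefl, Nefm, Nefh and Prph are lower in MOG than in SHAM, while the SHAM and MOG libraries of Ina overlap. With Jam2 left out of the sum Ina is higher in MOG by 0.11.

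Of 18 axonal microtubule genes 4 were called lower and 0 higher (median −0.21), among them Tppp3, a tubulin polymerization-promoting protein gene, at −0.85 and the stathmin gene Stmn2 at −0.53, and the count was 2 without MOG replicate 2 or 3. Of 18 genes for transport and linkers of neurofilaments 2 were called lower (median 0.04): Kif5a, a kinesin heavy chain that carries neurofilaments, at −0.34 (adjusted p = 0.0388), and the kinesin light chain gene Klc2 at −0.28 (adjusted p = 0.0422). Of 25 genes for kinases, phosphatases and turnover 1 was called, Arhgef28, whose product binds Nefl mRNA, higher at 0.53 (adjusted p = 0.0454, median of the list −0.08). With 1 library left out, the transport count stayed at 2 in 1 of 12 fits and the kinase count at 1 in 3 of 12, and limma-voom called 0 in both lists.

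Among 11 tested of 14 other intermediate filament genes, 1 was called. Gfap, the glial filament gene, rose by 1.25 on the log2 scale (adjusted p = 0.00287), from 23.1 ± 3.3 CPM in SHAM to 54.9 ± 3.1 in MOG. Vim, expressed in Müller cells, was at 0.13 (adjusted p = 0.474), and the median of the list was 0.13. The opposite direction of Gfap and the 5 neuronal genes held in these libraries with no overlap between SHAM and MOG for either.

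**Figure D5:**
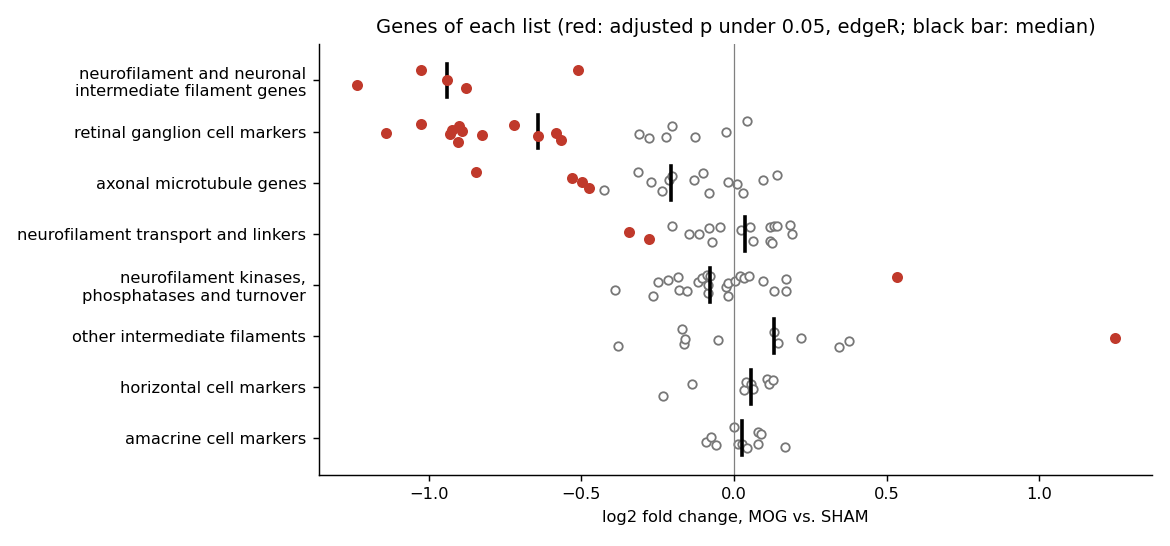
Log2 fold change in MOG vs. SHAM for each gene of the members and of the related lists, with red points for genes called by edgeR and black bars for medians. The members (median −0.94) and the ganglion cell markers (median −0.64) lie lowest, and the medians of the other lists shown run from −0.21 to 0.13.

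Horizontal cells can also hold neurofilaments. Of 9 horizontal cell markers 0 were called by edgeR, DESeq2 or limma-voom, and their median was 0.06. In edgeR 0 had an unadjusted p under 0.05, against 2380 of the 18299 tested genes. The 2 most abundant, Prox1 and Slc4a3, were both at 0.11. Below 0 were 2 of the 9, Calb1 at −0.14 and Lhx1 at −0.23. Libraries of SHAM and MOG did not overlap for Lhx1 (lower in MOG, as were 8.34% of tested genes) and Slc4a3 (higher). The summed level of the 9 markers was 610 to 645 CPM in SHAM and 630 to 664 in MOG. Of 11 amacrine cell markers 0 were called by any of the 3 tools and 0 had an unadjusted p under 0.05 (median 0.03), with Gad1 at 0.03 and Tfap2b at 0.08.

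In the other cell types, 0 of 10 bipolar, 0 of 8 cone, 0 of 5 astrocyte, 0 of 3 Schwann cell, 0 of 2 lens and 0 of 3 erythrocyte markers tested were called by edgeR, DESeq2 or limma-voom, with 1, 2, 1, 0, 0 and 0 at an unadjusted p under 0.05. Of 8 pigment epithelium markers 0 were called by edgeR and 4 had an unadjusted p under 0.05, with Ttr at 0.86 and Rgr at 1.11. DESeq2 called 1 of them on all 12 libraries and 3 on the 6 libraries of MOG and SHAM. Of 8 Müller cell markers 1 was called by edgeR, Aqp4, higher at 0.46, and 2 by DESeq2 on all 12 libraries (1 on the 6). The most abundant of them, Glul, was at −0.26 (adjusted p = 0.117) with every MOG library below SHAM, Dkk3 was at 0.05, and 4 of 8 had a value below 0. Called higher in MOG were 1 of 5 oligodendrocyte markers (Cnp, 0.50, beside Mbp at 0.16) and 2 of 8 microglia markers (C1qa, 0.99, and Csf1r, 0.59). Summed levels in SHAM and MOG were 18.0 to 24.7 and 34.6 to 47.9 CPM for pigment epithelium, and 22.1 to 30.5 and 36.6 to 42.0 CPM for microglia. For lens markers they were 0.545 to 15.8 and 0.901 to 1.01 CPM. Their part in the members' values was not tested.

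The members were compared from library to library within groups. All 5 lay above their group mean in replicate 1 of SHAM, MOG and GV16, and none did in SHAM replicate 3, MOG replicate 2 or GV16 replicate 3. In the GB20 libraries 2, 3 and 3 members lay above the mean, and GB20 replicate 1 had the highest Nefl of its group (178 CPM) with the lowest Nefm (66.1) and Ina (59.3). After group means were removed, Pearson's r over the 12 libraries was 0.91 between Nefm and Ina and 0.90 between Nefl and Nefh. The other pairs without Prph ranged from 0.58 (Nefl and Ina) to 0.86 (Nefm and Nefh), and those with Prph from 0.17 to 0.54 (Nefl and Prph). These are descriptions, since the points share libraries and depth.

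The genes most like the mean of the 5 members over the 12 libraries, among 12273 others at a mean of 5 CPM or more, were Chrna6 (a nicotinic receptor subunit gene, r = 0.98), Cplx1 (complexin, which acts in synaptic vesicle release, 0.98), Cend1 (0.98), Rasd2 (0.98) and Rbpms2 (0.97). With group means removed they were Pls3 (0.97), Mgat3 (0.96), Sprn (0.96), Thy1 (0.95) and Rtn1 (0.95). Of the first 5, Cplx1 was closest to Nefl in size of change, with 109 ± 8 CPM in SHAM and 58.0 ± 6.2 in MOG (log2 fold change −0.91, adjusted p = 0.00014). Mgat3 by contrast stood at 63.8 ± 2.8 and 62.6 ± 3.3 CPM.

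The genes beside Nefl and Nefm on chromosome 14 were looked at for comparison. Within 500 kb, 4 other genes were tested, with adjusted p of 0.634 to 0.884 by edgeR in MOG vs. SHAM. Their log2 fold changes were −0.42 for Cdca2, −0.22 for Gnrh1, −0.04 for Kctd9 and 0.09 for Dock5. Kctd9, the most abundant, stood at 24.2 ± 0.8 CPM in SHAM and 23.6 ± 1.5 in MOG.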

How the data were processed

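Raw read counts and FPKM values per gene for the 12 libraries were deposited by the authors. By the study's methods poly-A mRNA was sequenced, aligned with HISAT2 and counted per gene with featureCounts. The submitters' processing notes name HISAT2 2.0.5 and mm10. For the annotation release and strand setting: not given in the sources used here. Identifiers were named through GENCODE for GRCm38, which held 54495 of 54532, the others taking 0.0115% of counts.

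From the counts, edgeR 4.0.16 (R 4.3.3) was fitted to all 12 libraries with TMM scaling, its default expression filter (18299 genes), robust quasi-likelihood dispersion and 1 mean per group, with 7 comparisons. Genes were called below an adjusted p of 0.05 (Benjamini-Hochberg), whatever the fold. CPM used TMM-scaled totals. Ratios of FPKM had no pseudocount, and log2 FPKM otherwise a pseudocount of 1. Intervals are 95%. Alternatives were DESeq2 1.42.0, limma-voom (limma 3.58.1), DESeq2 size factors, no filter, a replicate block, a length offset, 6 libraries only, leaving out each library, a pseudocount of 0.1 and other lengths. As a check of the code, edgeR, DESeq2 and limma-voom were run on counts simulated from the fitted means and dispersions. Known changes were put in for MOG vs. SHAM only, with no replicate structure, so the other comparisons were not checked. Ratios were tested with scipy 1.17.1.

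Replicate numbers were checked as pairs: same-numbered libraries deviated from their group means with correlations of -0.0972 to 0.356, 6 of 18 over 0.1, and all 3 pairs passed only between SHAM and GB20. No library pair agreed within sampling noise. The members and the gene lists were chosen with earlier results of these data known. Genes named were the members, per list the 2 largest called rises and falls, and the 2 most abundant markers of the cell type lists described singly. Also named were horizontal cell markers below 0, a few set markers, the 5 genes most like the members and tested genes within 500 kb of Nefl and Nefm. The lists held other intermediate filament, transport, kinase, microtubule and cell type marker genes. Values for rod markers are not reported here.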

Additional observations from a re-analysis of the deposited data

How the results depend on the processing

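In MOG vs. SHAM the 5 members kept their direction in all 21 other fits. Of 725 member values recomputed over the comparisons, 659 kept their direction and their side of the threshold. The number of members called ranged from 3 to 5 in MOG vs. SHAM, from 1 to 4 in GB20 vs. SHAM and from 2 to 4 in GV16 vs. SHAM when 1 library was left out, and was 0 throughout in the other comparisons. With 3 libraries a group and counts of Prph from 28 to 84, an interval that includes 0 leaves the direction of a difference undecided.

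For GB20 vs. MOG, Ina (0.0025) was -0.0038 with limma-voom, -0.0187 with a length offset and -0.0153 with the replicate block and a length offset, and ranged from -0.0634 to 0.0993 with 1 library left out. With 1 library left out, GV16 vs. MOG ranged from -0.0061 to 0.269 for Nefl, -0.118 to 0.244 for Nefm, -0.0624 to 0.197 for Nefh and -0.134 to 0.0346 for Ina. GB20 vs. GV16 ranged from -0.0267 to 0.25 for Nefl, -0.105 to 0.227 for Nefm, -0.0838 to 0.177 for Nefh and -0.0321 to 0.138 for Ina. Needled vs. MOG ranged from -0.005 to 0.247 for Nefm and -0.0645 to 0.0471 for Ina. The cause was not tested.

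Genes called in MOG vs. SHAM numbered 2 for transport and linkers, 0 with limma-voom or edgeR on 6 libraries, 1 with DESeq2 size factors or DESeq2 on 6 libraries, and 0 to 2 with 1 library left out. For kinases and turnover 1 was called, 0 with limma-voom, DESeq2 or edgeR on 6 libraries, 2 with the replicate block and a length offset, and 0 to 1 with 1 library left out. The microtubule count was 2 to 5.

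With Nefm by its shorter transcript the MOG minus SHAM share was -2.02 percentage points for Nefl and -2.41 for Nefm. For Ina this share was 4.17 when the shared stretch was taken off the lengths of Nefl and Nefm, with all their reads kept. The Nefh share ranged from -0.528 to 0.0667 with 1 library left out. Prph on the log2 FPKM scale was -1.15 with a pseudocount of 0.1. Beside the ganglion cell markers, MOG minus SHAM with Jam2 left out of the sum was -0.3185 for Nefl, -0.4108 for Nefm, -0.2599 for Nefh and 0.1108 for Ina, and against the mean log2 CPM of the markers -0.3564, -0.4481, -0.2969 and 0.073. These length and marker alternatives were chosen after seeing the data, as was the test of ratios.

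With the replicate block, 5 of 5 members were called in MOG vs. SHAM, 4 in GB20 vs. SHAM and 5 in GV16 vs. SHAM (Prph -0.81, adjusted p = 0.0376 by edgeR), and the calls of the other comparisons did not change. Of 12 libraries, 10 correlated best with their own number, which is a hint from the data. The methods describe 3 repeats of the experiment, but no label ties a library's number to a repeat.

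Over all genes, 245 were called in MOG vs. SHAM, 539 with no filter, 404 with the replicate block, 447 with the block and a length offset, and 91 to 427 with 1 library left out. Over the alternatives other than leaving out 1 library, the count was 37 to 140 for GB20 vs. MOG (44 as reported) and 14 to 73 for GV16 vs. MOG (30). It was 1 to 8 for GB20 vs. GV16 (1), 57 to 282 for GB20 vs. SHAM (63), 66 to 395 for GV16 vs. SHAM (120) and 50 to 159 for needled vs. MOG (58).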
